A study of Mus musculus with 4 samples.

Results

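Keratins are the intermediate filament proteins of epithelial cells. The 7 keratin genes described here, *Krt7*, *Krt8*, *Krt18*, *Krt19*, *Krt20*, *Krt23* and *Krt80*, were taken by symbol from a table of 36144 gene names measured by bulk RNA-seq in mouse colonic organoids (colonoids), and all 7 passed the count filter, as did 13979 genes in all. Colonoids from the colon of a WT male mouse aged 24 weeks were sequenced at passage 3, either untreated or given 2 mM sodium butyrate, a short-chain fatty acid made by gut bacteria and an inhibitor of histone deacetylases. The libraries were untreated and butyrate at 48 h (day 2) and untreated and butyrate at 72 h (day 3), with 1 library for each of the 4 conditions. All cultures shared the same medium, which held EGF, Noggin, R-spondin, CHIR99021 and Y-27632 and so keeps stem cells and their progeny growing together. The labels give the genotype as WT, whereas a figure legend of the study gives Hes1-GFP for these cultures, and genotype entered no comparison. With a single library per condition, replicate error could not be measured and no test was made. The 95% intervals given below reflect counting error alone, so they compare these libraries and not the conditions.

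A keratin filament is built from pairs of 1 type I and 1 type II protein, so an epithelial cell makes both types together. *Krt8* (type II) with *Krt18* and *Krt19* (type I) form the filament network of simple epithelia such as the intestine, where it resists mechanical and chemical stress. *Krt20* (type I) is added in differentiated cells of the upper crypt and surface, and *Krt7* (type II) is best known from ducts and other simple epithelia. *Krt23* (type I) was described as a gene that histone deacetylase inhibitors induce in cancer cells, and *Krt80* (type II) is found at cell junctions of many epithelia.

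Library totals were between 20790225 and 24207840 counts, and mitochondrial genes took 14.1% to 18.4% of them. The labelled tissue was checked against its markers. All 7 intestinal epithelial markers (*Epcam*, *Cdh1*, *Vil1*, *Cdx1*, *Cdx2*, *Lgals4* and *Hnf4a*) passed the filter, the lowest being *Cdx1* with 2706 counts in the butyrate library at 72 h. Of 6 fibroblast, 4 endothelial and 6 immune cell markers, 1 of each list passed, and the scaled counts summed over a list were at most 21.8, 54.3 and 71.3, respectively. In bulk cultures, more cells of one type and more RNA per cell cannot be told apart.

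The 7 genes lie in the 2 keratin clusters of the mouse genome (GRCm38, GENCODE). On chromosome 15, in the type II cluster, *Krt80* spans 101347444 to 101370162, *Krt7* spans 101411043 to 101430313 and *Krt8* spans 101996698 to 102004482. *Krt18*, from 102028180 to 102032027, is a type I gene that sits in that cluster, 23.7 kb from *Krt8*. On chromosome 11, in the type I cluster, *Krt20* spans 99428403 to 99438150, *Krt23* spans 99477974 to 99493137 and *Krt19* spans 100140810 to 100148665. *Krt20* and *Krt23* are 39.8 kb apart.

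RefSeq start sites (GRCm38.p6) were found for 5 of the 7 genes. The start regions of both of these close pairs, *Krt8* with *Krt18* and *Krt20* with *Krt23*, are printed because the genes of each pair differed in sign with butyrate at 48 h, at 72 h or at both. Each runs 5′ to 3′ on the strand of its gene, from 250 bases before the start site to 50 bases after it. These start sites differ from the gene ends of the GENCODE spans above, so positions counted from them hold for RefSeq alone. *Krt8* is read from chr15:102004293-102004592 (minus strand), *Krt18* from chr15:102027966-102028265 (plus strand), *Krt20* from chr11:99438104-99438403 (minus strand) and *Krt23* from chr11:99493071-99493370 (minus strand). Capitals mark matches to any of 4 motifs, searched on both strands, namely the TATA box with the letters TATAAA, the GC box with the letters GGGCGG, the NF-Y motif with the letters CCAAT, and the AP-1 motif with the letters TGANTCA.
Krt8: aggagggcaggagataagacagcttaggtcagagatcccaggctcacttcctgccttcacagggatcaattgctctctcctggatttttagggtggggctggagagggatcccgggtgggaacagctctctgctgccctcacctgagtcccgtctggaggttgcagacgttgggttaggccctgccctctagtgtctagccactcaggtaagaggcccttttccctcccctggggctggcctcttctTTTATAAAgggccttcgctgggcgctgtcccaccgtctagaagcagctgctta
Krt18: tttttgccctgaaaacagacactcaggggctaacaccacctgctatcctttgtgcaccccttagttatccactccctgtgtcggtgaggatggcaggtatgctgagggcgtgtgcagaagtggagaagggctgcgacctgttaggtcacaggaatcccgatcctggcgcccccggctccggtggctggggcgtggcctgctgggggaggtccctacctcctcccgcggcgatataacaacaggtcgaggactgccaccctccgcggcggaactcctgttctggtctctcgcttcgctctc
Krt20: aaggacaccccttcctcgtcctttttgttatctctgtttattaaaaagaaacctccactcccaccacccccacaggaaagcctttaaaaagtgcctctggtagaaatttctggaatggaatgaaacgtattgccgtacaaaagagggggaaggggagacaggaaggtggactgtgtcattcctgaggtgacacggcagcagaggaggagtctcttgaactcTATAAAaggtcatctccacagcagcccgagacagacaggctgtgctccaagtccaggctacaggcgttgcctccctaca
Krt23: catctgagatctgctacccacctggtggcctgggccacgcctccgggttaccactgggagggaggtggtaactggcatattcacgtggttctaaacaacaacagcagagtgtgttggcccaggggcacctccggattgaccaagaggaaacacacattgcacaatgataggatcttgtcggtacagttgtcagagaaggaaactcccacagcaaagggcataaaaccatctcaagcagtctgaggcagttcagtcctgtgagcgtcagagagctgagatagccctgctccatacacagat

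TATAAA was found in *Krt20*, starting 29 bases before the start site, and in *Krt8*, on both strands of the 8 bases around the start site, where the matches overlap. Of 32851 start regions in the table, 13.6% hold this motif. No match to the 4 motifs was found in the windows of *Krt18* and *Krt23*. The window of *Krt7*, which is not printed, held 4 GC boxes, a motif found in 35.7% of start regions. The NF-Y and AP-1 letters, found in 37.4% and 7.81% of start regions, were in none of the 5 windows. The *Krt18* and *Krt7* windows had 17 and 21 CpG dinucleotides, and those of *Krt8*, *Krt20* and *Krt23* had 6 each, against a median of 7. These matches describe letters in the windows and not binding.

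By count, *Krt8* and *Krt19* were the most abundant of the 7 in every library. The untreated library of 48 h held 33833 *Krt8* counts and its butyrate counterpart 40538, against 39916 and 32362 a day later. By count it ranked between 27 and 32 among all genes, and *Krt19* between 36 and 47. Transcript levels of different genes were compared as scaled counts per kb of exon length. On this scale, over the 4 libraries, *Krt8* was at 17669 to 20129, *Krt19* at 14244 to 16820, *Krt18* at 6002 to 7991, *Krt20* at 807 to 1551, *Krt7* at 1003 to 1266, *Krt23* at 63.4 to 148 and *Krt80* at 16.3 to 36.0. The ranges of *Krt20* and *Krt7* overlapped, as the others did not, and their order turned on the exon length used. With the longest transcript of *Krt7* (4094 bases) in place of its merged exons (7049 bases), *Krt7* was at 1727 to 2179, above *Krt20* in every library. With the longest transcript of *Krt19* (1576 in place of 1855 bases), *Krt19* was at 18003 and 18948 in the 48 h libraries, slightly above *Krt8*, and at 19798 and 16765 in the 72 h libraries, below it.

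The 7 genes took 0.373% (0.371 to 0.376) of all counts in the untreated library and 0.399% (0.396 to 0.401) in the butyrate library at 48 h, with exact Clopper-Pearson intervals. At 72 h the share was 0.391% (0.388 to 0.393) untreated and 0.371% (0.368 to 0.374) with butyrate. The order of these shares turned on the scaling. The summed scaled counts of the 7 were 82352 (untreated) and 87583 (butyrate) in the 48 h pair, then 90931 and 83322, so that the untreated library was lowest at 48 h and highest at 72 h, as it was for the share without mitochondrial counts. Type II genes made up 44.4% and 45.8% of the 7-gene total per kb at 48 h, and 45.4% and 45.2% at 72 h, in untreated and butyrate-treated colonoids, respectively. *Krt8* alone made up 42.0% to 43.2%, and *Krt19* 33.7% to 36.7%.

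**Figure D1:**
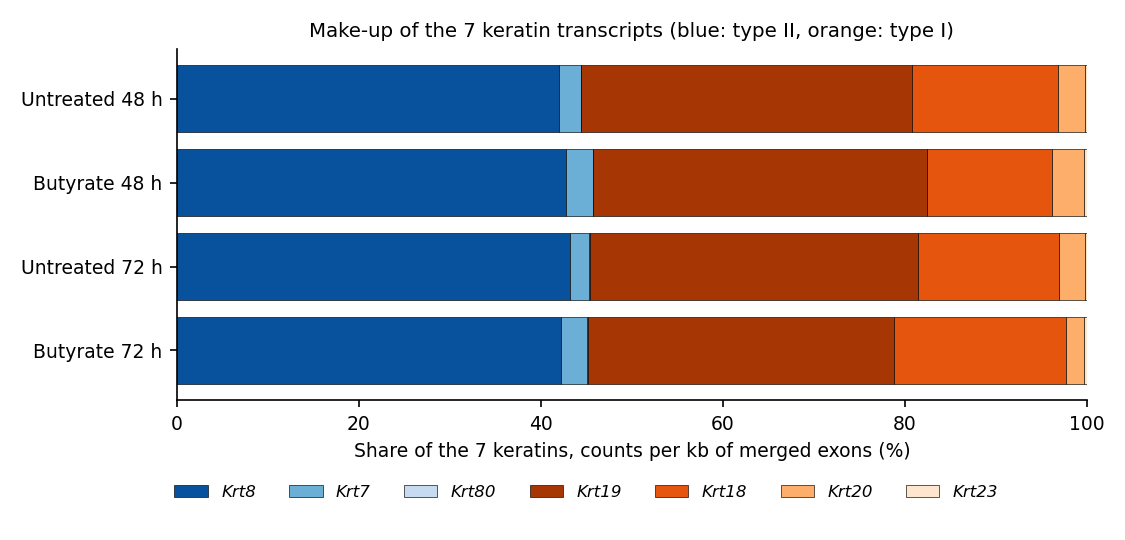
Share of each keratin in the 7-gene total, as counts per kb of merged exons (x axis, percent), in the 4 libraries, with type II genes in blue and type I genes in orange. The type II share was between 44.4% and 45.8%, while *Krt18* varied from 13.7% to 18.9%, and *Krt23* and *Krt80* are too rare to be seen.

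To ask how butyrate-treated and untreated colonoids differed, log2 changes were taken between scaled counts (DESeq2 size factors) with a pseudocount of 1. A gene was called when its change was at least 2-fold. At 48 h, 1 of the 7 keratins, *Krt23*, was called, beside 10.0% of all tested genes (6.94% higher and 3.08% lower). At 72 h, 0 of 7 were called, beside 8.31% of all tested genes (4.53% higher and 3.78% lower). The median log2 change of the 7 was 0.31 at 48 h and 0.15 at 72 h, beside −0.01 and 0.00 for all tested genes. *Krt7*, *Krt23* and *Krt80* were higher with butyrate at both times, and the other 4 differed in opposite directions at 48 h and 72 h. Among all tested genes, 30.4% were higher at both times, 31.3% lower at both and 38.3% opposite.

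**Figure D2:**
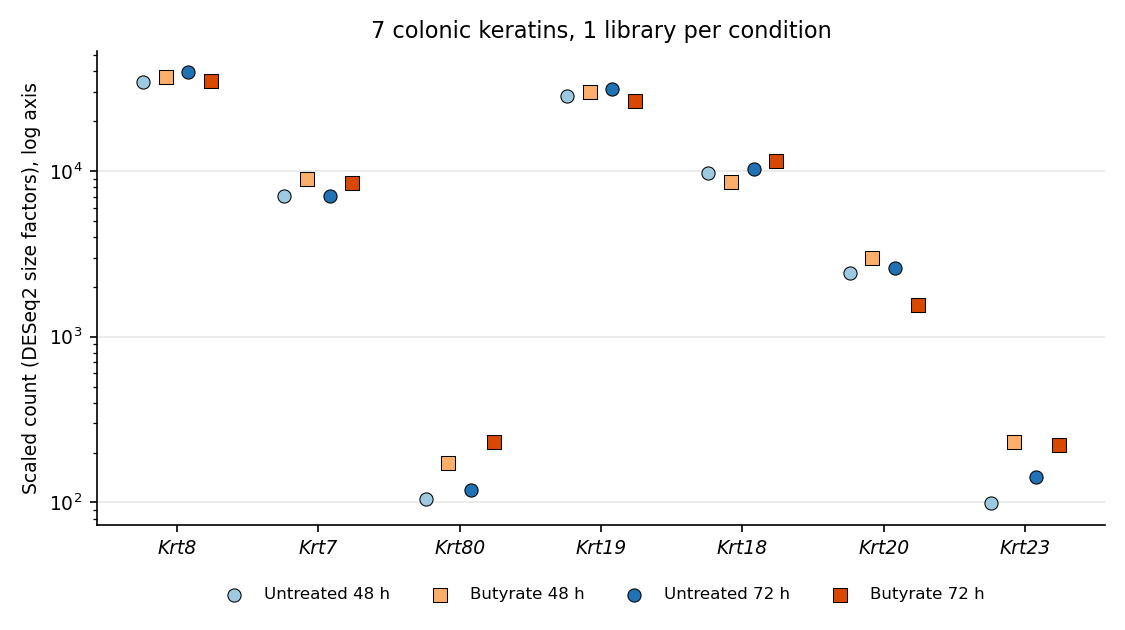
Scaled counts (y axis, log scale) of the 7 keratins in the 4 libraries, with circles for untreated and squares for butyrate. *Krt7*, *Krt23* and *Krt80* were higher with butyrate at both times, as were 30.4% of all tested genes, and for *Krt20* the butyrate library at 72 h is the lowest.

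The type II genes come first. *Krt8* differed with butyrate by 0.09 (0.07 to 0.11) at 48 h and −0.17 (−0.19 to −0.15) at 72 h on the log2 scale, and 81.6% and 57.8% of all tested genes had as large a change. These values place *Krt8* among the less changed genes of the comparison, although its counting error is small. The 7 epithelial markers had a median change of 0.01 at 48 h, with 4 higher and 3 lower (*Hnf4a* turned to lower with totals without mitochondrial genes), and of −0.28 at 72 h, where all 7 were lower, as *Krt8* and *Krt19* were; their part in the keratin values was not tested. For *Krt7* the 48 h libraries held 6913 (untreated) and 9833 (butyrate) counts, and the 72 h libraries 7191 and 7831. Its level was higher with butyrate at both times, with log2 changes of 0.34 (0.29 to 0.38) and 0.25 (0.21 to 0.30), and 41.6% and 44.1% of all tested genes had as large a change. Between the untreated libraries of 48 h and 72 h *Krt7* differed by 0.01 on the log2 scale (−0.04 to 0.05). The ratio of *Krt7* to *Krt8* per kb was 0.0568 and 0.0500 in the untreated libraries of 48 h and 72 h, and 0.0674 and 0.0672 in the butyrate ones.

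*Krt80* was rare, with 102 (untreated) and 191 (butyrate) counts in the 48 h libraries, then 121 and 213 in those of 72 h. It was higher with butyrate by 0.73 (0.38 to 1.09) at the earlier and 0.94 (0.62 to 1.28) at the later time on the log2 scale. As large a change was seen in 16.5% and 9.29% of all tested genes. *Krt80*, which lies 40.9 kb from *Krt7* on chromosome 15, was the least abundant of the 7 per kb in every library.

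Among the type I genes, *Krt18* and *Krt19* pair with *Krt8*. Counts of *Krt18* were 9480 (untreated) and 9507 (butyrate) in the 48 h pair of libraries and 10483 and 10632 in the 72 h pair. After scaling, *Krt18* differed by −0.17 (−0.21 to −0.13) in the first pair and by 0.15 (0.11 to 0.19) in the second on the log2 scale, opposite in sign to *Krt8* each time. The ratio of *Krt8* to *Krt18* per kb was accordingly 2.62 (untreated) against 3.13 (butyrate) in the first pair, and 2.79 against 2.23 in the second.

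*Krt19* reached 27748 (untreated) and 32914 (butyrate) counts in the 48 h pair, and 31600 and 24464 in the 72 h pair. It differed by 0.07 (0.05 to 0.10) and −0.24 (−0.26 to −0.22) on the log2 scale, with the sign of *Krt8* each time. The *Krt8* to *Krt19* ratio per kb stayed between 1.16 and 1.25, whereas that of *Krt19* to *Krt18* went from 2.27 to 2.68 with butyrate in the 48 h pair, and from 2.34 to 1.78 in the 72 h pair. Tuft cells, which are rich in *Krt18*, had 4 of 5 markers tested. All 4 were lower with butyrate at both times, beside 31.3% of all tested genes, although their 48 h intervals included 0. At 72 h, 2 of the 4 were at least 2-fold lower, beside 3.78% of all tested genes. The summed scaled counts of the list were 428 (untreated) and 349 (butyrate) in the 48 h pair, then 463 and 166. The tuft cell kinase gene *Dclk1* went from 147 to 140 counts in the 48 h pair and from 189 to 39 in the 72 h pair. The part of tuft cells in the *Krt18* values was not tested.

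*Krt20*, the keratin of differentiated colonocytes and goblet cells, had the widest gap of the 7 between its 48 h and 72 h changes. The 48 h libraries held 2365 (untreated) and 3294 (butyrate) *Krt20* counts, a log2 change of 0.31 (0.23 to 0.38), and 45.1% of all tested genes changed as much. Those of 72 h held 2637 and 1439, a log2 change of −0.74 (−0.84 to −0.65), and 13.2% did so. The change at 72 h minus that at 48 h was −1.05 on the log2 scale (−1.17 to −0.93 by a Wald interval on the counts), a difference that was not tested. The highest and the lowest level were both in butyrate libraries, while the untreated libraries differed by 0.11 (0.03 to 0.19).

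The markers of surface colonocytes moved in the same libraries. Of 8 colonocyte markers, 7 were higher with butyrate at 48 h, 3 of them at least 2-fold (6.94% of all tested genes), and all 8 were lower at 72 h, 0 of them at least 2-fold (3.78%), with *Aqp8*, picked out after its values were seen, turning to higher when library totals were used. The 3 were the transporter gene *Slc26a3* (1.29) and the carbonic anhydrase genes *Car1* (1.14) and *Car4* (1.87), picked out after their values were seen, and at 72 h they changed by −0.20, −0.88 and −0.39. The median log2 change of the list was 0.72 at 48 h and −0.39 at 72 h, and its summed scaled counts were 111897 (untreated) and 132754 (butyrate) in the 48 h pair, then 145289 and 89448. *Ceacam1*, an adhesion molecule of the surface, was the exception at 48 h, with log2 changes of −0.68 and −0.80. For the 7 goblet cell markers the median was −0.36 in the 48 h pair and −0.87 in the 72 h pair. In the first pair 3 were higher and 4 lower, although *Fcgbp* (0.01) turned to lower with totals without mitochondrial genes. In the second all 7 were lower, 3 of them at least 2-fold (3.78% of all tested genes), and *Fcgbp* changed by −1.11. The trefoil factor gene *Tff3* changed by 0.77 and −0.65 and *Clca1* by 0.61 and −2.26. *Fcgbp*, *Tff3* and *Clca1* were picked out after their values were seen. *Muc2*, the main secreted mucin of the colon, changed by −0.49 and −0.87, *Zg16* by −0.67 and −2.53, and *Spdef*, a goblet cell transcription factor, by −0.44 and −0.50. Of 6 stem cell markers, 1 was higher and 5 lower in the 48 h pair, with a median of −0.22, and all 6 were higher in the 72 h pair, with a median of 0.66. *Lgr5*, the receptor gene that marks crypt base stem cells, changed by −0.94 and 0.79 and *Smoc2* by −0.31 and 0.70, both picked out after their values were seen. The 1 higher in both pairs was *Ascl2*, a stem cell transcription factor gene, which changed by 0.19 and 0.47. The part of cell composition in the *Krt20* values was not tested.

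*Krt23* was, like *Krt80*, rare. The 48 h libraries held 97 (untreated) and 256 (butyrate) *Krt23* counts, a log2 change of 1.22 (0.88 to 1.58), and 7.33% of all tested genes changed as much. Those of 72 h held 145 and 206, a log2 change of 0.63 (0.32 to 0.95), and 16.3% did so. *Krt23* was also higher in the untreated library at 72 h than at 48 h, by 0.53 (0.15 to 0.92). *Krt23* lies close to *Krt20*, and its level per kb relative to *Krt20* went from 0.0505 to 0.0957 with butyrate in the 48 h pair, and from 0.0677 to 0.176 in the 72 h pair.

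Changes over culture time were compared within each arm. Between the untreated libraries, all 7 keratins were higher at 72 h than at 48 h, except that *Krt7* turned to lower with library totals (−0.07) and with totals without mitochondrial genes (−0.02). Of the 7, 0 were called, beside 4.49% of all tested genes (2.66% higher and 1.82% lower), and the median log2 difference was 0.14. The intervals of *Krt7* and *Krt80* included 0, so no difference could be shown for these genes at this depth. Between the butyrate libraries, 0 of 7 were called, beside 8.62% of all tested genes (3.67% higher and 4.95% lower), and 2 were higher and 5 lower at 72 h. *Krt20* differed by −0.94 (−1.03 to −0.85), whereas *Krt18* was higher by 0.41 (0.37 to 0.45) and *Krt80* by 0.41 (0.12 to 0.70).

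*Krt23* and *Krt80* varied most over the 4 libraries, with ranges of 1.22 and 1.13 on the log2 scale. Their patterns were compared with those of 10762 genes with a mean scaled count of at least 100, as the root mean square difference of centred log2 values over the 4 libraries. The genes most like *Krt23* were *Nptxr* (0.0601), *Rab31* (0.0713) and *Bmp8b* (0.0771). Those most like *Krt80* were *Tyro3* (0.0245), *Mgam2-ps* (0.0395) and *Zfp516* (0.0533). *Nptxr*, a pentraxin receptor gene, changed with butyrate by 1.23 at 48 h and 0.47 at 72 h, and *Tyro3*, a receptor tyrosine kinase gene, by 0.76 and 1.00. With 4 libraries such likeness is a description.

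The rest of the keratin family was low in untreated colonoids, and several of its genes were higher with butyrate. Of 47 other keratin genes in the table, 15 had no count, 20 had counts but did not pass the filter and 12 passed. At 48 h, 5 of the 12 were at least 2-fold higher (6.94% of all tested genes) and 1 lower (3.08%). At 72 h, 4 were at least 2-fold higher (4.53%) and 1 lower (3.78%). *Krt4*, *Krt14* and *Krt79* were at least 2-fold higher at both times, as were 2.55% of all tested genes, and *Krt27*, an inner root sheath keratin of hair, was at least 2-fold lower at both, as were 0.887%. Genes that pass the filter mainly through the libraries in which they are high are among them. *Krt16* passed through its butyrate libraries alone and *Krt27* through its untreated libraries alone, so these counts describe the list and lend no support to a difference.

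*Krt4*, a type II keratin of the upper layers of non-cornified mucosa such as the oesophagus, lies on chromosome 15 from 101918535 to 101924735. The 48 h pair held 213 (untreated) and 1143 (butyrate) *Krt4* counts, and the 72 h pair 202 and 1127. The untreated libraries were alike. With butyrate *Krt4* was higher, by 2.25 (2.04 to 2.47) in the first pair and 2.60 (2.39 to 2.83) in the second on the log2 scale. As large a change was seen in 1.95% and 0.959% of all tested genes. Per kb, *Krt4* was at 102 and 93.5 in the untreated libraries and at 486 and 571 in the butyrate ones, above *Krt80* and below *Krt20* in every library. It was also above *Krt23*, but only slightly in the untreated library of 72 h, where *Krt23* was at 91.5. *Krt13*, the type I partner of *Krt4* in stratified mucosa, never exceeded 5 counts and was picked out after its values were seen.

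*Krt87*, the gene next to *Krt7*, reached 110 (untreated) and 631 (butyrate) counts in the 48 h pair, and 122 and 207 in the 72 h pair. It differed by 2.34 (2.05 to 2.65) and 0.89 (0.56 to 1.23) on the log2 scale. The annotated ends of *Krt7* and *Krt87*, which face each other on opposite strands, are 724 bases apart, and whether strand was used in counting is not given in the sources used here. *Krt4* and *Krt87* together made up 57.4% and 73.8% of other keratin counts at 48 h, and 55.4% and 85.5% at 72 h, in untreated and butyrate-treated colonoids, respectively.

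*Krt14*, the type I keratin of the basal layer of stratified epithelia, counted 11 (untreated) and 108 (butyrate) in the 48 h pair, and 9 and 27 in the 72 h pair. It differed by 3.01 (2.23 to 4.17) and 1.61 (0.58 to 2.99) on the log2 scale. *Krt79*, a type II keratin 4.6 kb from *Krt4*, counted 8 and 59, then 11 and 26. Both had their highest level with butyrate at 48 h. *Krt36*, a type I keratin of hair and tongue papillae, counted 22 and 166 in the 48 h pair, a log2 change of 2.69 (2.10 to 3.46), but 23 and 12 in the 72 h pair, where its interval (−1.95 to 0.26) included 0. All of these genes were low next to *Krt8*, and with butyrate the other keratins came to 2.43% of all keratin counts at 48 h and 1.98% at 72 h, from 0.694% and 0.631% untreated.

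Of the remaining tested genes, *Krt16*, a stress keratin of epidermis, counted 6 (untreated) and 13 (butyrate) in the 48 h pair, and 1 and 13 in the 72 h pair, with an interval of the 72 h change from 1.09 to 9.24 on the log2 scale. *Krt10*, *Krt15*, *Krt39* and *Krt222* had intervals that included 0 at both times. Those of *Krt16* (−0.55 to 2.62) and *Krt6a* included 0 at 48 h, and *Krt6a* changed by 0.82 (0.01 to 1.73) at 72 h. Among genes below the filter, *Krt90* went from 8 to 40 counts in the 48 h pair and *Krt78* from 4 to 23. Both were at 3 counts with butyrate at 72 h and were named after their values were seen.

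**Figure D3:**
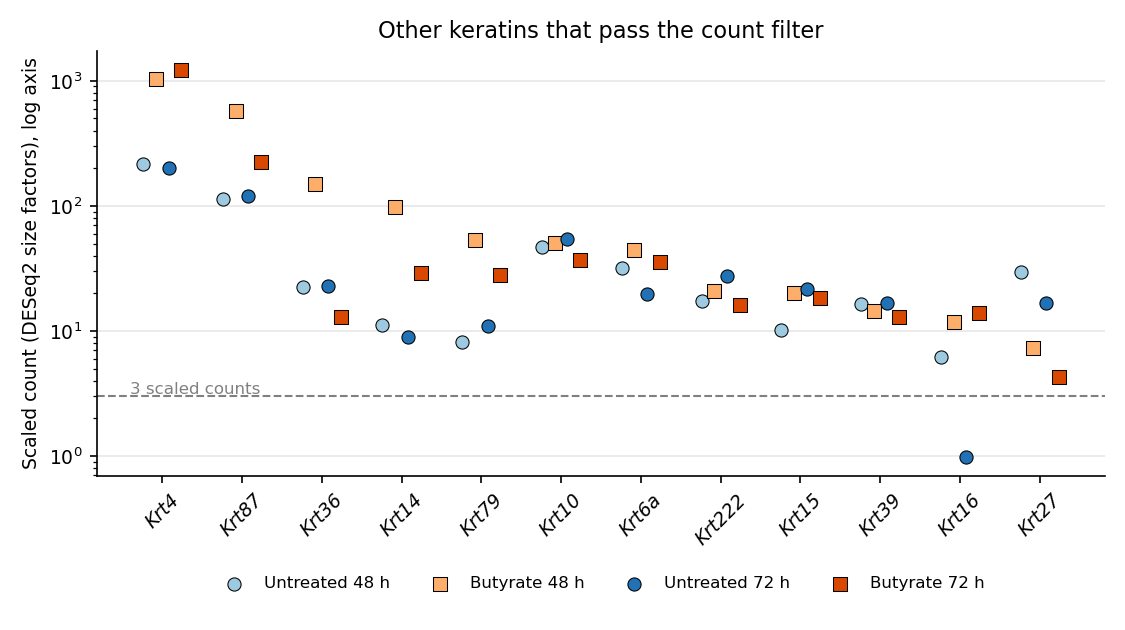
Scaled counts (y axis, log scale) of the 12 other keratins that passed the filter, with circles for untreated and squares for butyrate and a dashed line at 3 scaled counts. *Krt4*, *Krt14* and *Krt79* were at least 2-fold higher with butyrate at both times, as were 2.55% of all tested genes, and *Krt36* is high in the butyrate library at 48 h alone.

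Since several of these keratins are known from stratified epithelia, markers of such epithelia were followed. Of 8 markers that are not keratins, *Trp63*, *Ivl* and *Krtdap* had no count in any library, which allows at most 0.144 CPM for a floor of 3 counts, and *Dsc3* had 3 to 10 counts. *Krt5*, the partner of *Krt14* in basal cells, never exceeded 4 counts and was picked out after its values were seen. The 4 tested markers were *Dsg3*, *Sbsn*, *Pkp1* and *Lor*. The desmosomal cadherin *Dsg3* changed by 1.16 (0.62 to 1.76) at 48 h and 0.53 (−0.14 to 1.24) at 72 h, *Sbsn* by 0.62 (0.23 to 1.02) and 0.38 (−0.04 to 0.81), and *Lor* by −0.54 and −2.13. The summed scaled counts of the list were 1499 (untreated) and 1843 (butyrate) in the 48 h pair, then 1384 and 1442, mostly from *Pkp1*, which is also a linker gene below. Their part in the keratin values was not tested.

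Mesothelium, another epithelium that makes *Krt7*, *Krt8*, *Krt18* and *Krt19*, had 3 of 4 markers tested. All 3 were higher with butyrate at both times, beside 30.4% of all tested genes, and 2 of them at least 2-fold, beside 2.55%. *Msln*, mesothelin, went from 583 to 670 counts in the 48 h pair and from 412 to 846 in the 72 h pair, which after scaling were log2 changes of 0.03 (−0.13 to 0.19) and 1.17 (1.00 to 1.34). *Upk3b* went from 7 to 28 and from 2 to 14, and *Lrrn4* from 0 to 17 and from 2 to 14. These last genes passed the filter through their butyrate libraries alone. The summed scaled counts of the list were 605 and 651, then 411 and 944. *Wt1*, the defining transcription factor of mesothelium, never exceeded 3 counts. Of 4 urothelial markers, *Upk2* had at most 2 counts, and the list summed to 93.0 and 117 scaled counts in the 48 h pair, then 133 and 77.8. The log2 values were −0.45 and −0.78 for *Upk1a*, −0.17 and −1.41 for *Upk1b* and 2.01 and 0.44 for *Upk3a*, and the intervals of the first 2 at 48 h and of *Upk3a* at 72 h included 0. The part of other epithelia in the keratin values was not tested.

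**Figure D4:**
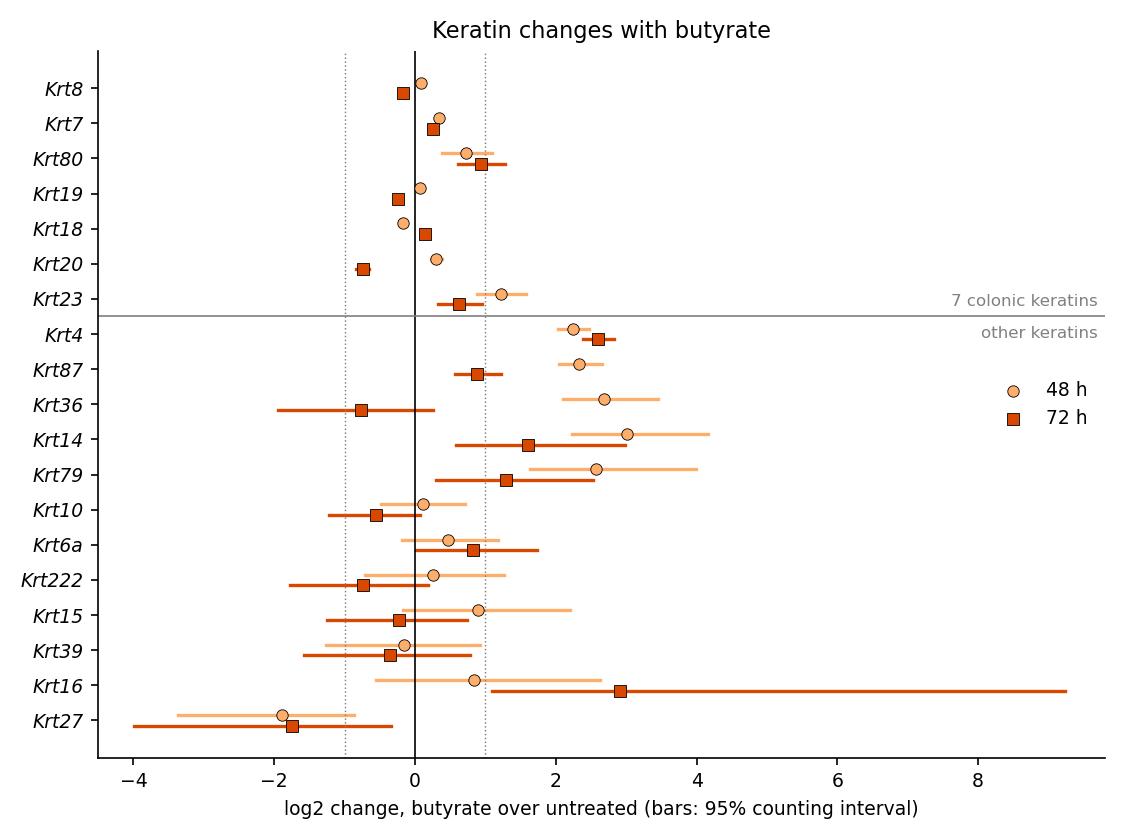
log2 change of butyrate over untreated (x axis) at 48 h (circles) and 72 h (squares) for the 7 colonic keratins and the 12 other keratins that passed the filter, with 95% counting intervals as bars and dotted lines at a 2-fold change. Of the 7, *Krt23* at 48 h alone lies past 2-fold, whereas *Krt4* lies past it at both times.

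Keratin filaments attach to desmosomes and to other filaments through plakins and plaque proteins. Of 14 such linker genes, 14 were tested and 0 were called at either time, beside 10.0% of all tested genes at 48 h and 8.31% at 72 h. Both medians were below 0, at −0.10 at 48 h and −0.24 at 72 h, and 8 of 14 were lower at both times, beside 31.3% of all tested genes. The 4 higher at both times were *Eppk1* (0.07 and 0.15), *Ppl* (0.11 and 0.13), *Pkp1* (0.28 and 0.16) and *Pkp4* (0.11 and 0.21), picked out after their values were seen, and the 48 h intervals of *Eppk1* and *Ppl* included 0. The plakin *Dst* changed by −0.54 (−0.61 to −0.47) and −0.63 (−0.69 to −0.56), the plakin *Plec*, which links keratin to other filaments, by −0.36 (−0.41 to −0.31) and −0.35 (−0.40 to −0.30), and the desmosomal plaque gene *Pkp3* by −0.40 and −0.29. The summed scaled counts of the linkers were 60745 (untreated) and 54560 (butyrate) in the 48 h pair, then 69742 and 60690.

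Of 13 intermediate filament genes that are not keratins, 9 were tested. At 48 h, 1 was at least 2-fold higher (6.94% of all tested genes) and 1 lower (3.08%), and at 72 h, 1 was higher (4.53%) and 1 lower (3.78%). *Nes*, which encodes nestin of progenitor cells, went from 116 to 405 counts in the 48 h pair and from 159 to 292 in the 72 h pair, with log2 changes of 1.62 (1.33 to 1.94) and 1.00 (0.72 to 1.29). The 72 h value lies at the 2-fold limit, and the call was lost with a pseudocount of 5 (0.98) and, narrowly, with size factors from all genes. The neurofilament gene *Nefh*, picked out after its values were seen, was at least 2-fold lower at 48 h (−1.21) but higher at 72 h (0.78). *Nefm*, another neurofilament gene, changed by −0.93 and −1.21, and the values of *Ina*, a further neuronal filament gene, were 0.61 (−0.05 to 1.32) and 0.43 (−0.21 to 1.11), with intervals that included 0. Of 10 genes for keratin-binding proteins, chaperones and parts of keratin inclusions, all were tested and 2 were at least 2-fold higher at both times, beside 2.55% of all tested genes. *Hspb1*, a small heat shock protein gene, went from 6 to 163 counts and from 10 to 42, and passed the filter through its butyrate libraries alone. *Tgm2*, the transglutaminase that cross-links keratins in inclusions, went from 528 to 1556 and from 295 to 981, with log2 changes of 1.39 (1.24 to 1.53) and 1.86 (1.67 to 2.06). *Fam83h*, which binds keratins, changed by −0.11 and −0.39.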

How the data were processed

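Gene expression was measured by bulk poly-A RNA-seq in 4 colonoid libraries, 1 per condition, grouped by their labels. The authors deposited whole-number counts per gene, made with a kallisto-based pseudoalignment pipeline (kallisto 0.44.0 and GRCm38.p6 in the submitters' processing notes) and tximport, with no normalisation or filter. Reads of similar keratins are shared by that estimate, so low counts of paralogs are uncertain. The 26 gene names turned into dates were not named. As the study's methods do, the filter asked for over 10 counts in 2 or more libraries, and the genes kept were scaled with DESeq2 1.42.0 size factors (R 4.3.3). TMM factors came from edgeR 4.0.16. Python 3.11.15 ran the other steps, with scipy 1.17.1 for intervals, pandas 2.3.3 and numpy 2.4.6 for tables and matplotlib 3.10.9 for figures. No model with p-values was fitted. Intervals were exact Clopper-Pearson intervals on count pairs, or Wald intervals for differences of changes, and PCR reads are not independent molecules. Exon lengths came from GENCODE M21 (GRCm38), as merged exons of all transcripts.

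The keratins and lists were chosen with earlier results of these data known. From the lists of epithelial and tuft cell markers, 2 genes are not reported here. The genes named were the 7 keratins, all other keratins past the filter, from each other list at most 3 genes with the largest smaller change among those that changed in 1 direction at both times, and the 3 genes most like each of the 2 most variable keratins. Other genes named are markers in a list, shown for their role or as its extremes, and were picked after their values were seen. The alternatives were other scalings, filters, lengths and a pseudocount of 5.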

Additional observations from a re-analysis of the deposited data

Results flagged for a closer look

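Of the 7 colonic and 12 other tested keratins, 4 had log2 changes with butyrate of opposite sign at 48 h and 72 h where neither counting interval held 0. All 4 are among the 7, and 9.86% of all tested genes did the same. These 4 have high counts, and so narrower intervals than most genes, which makes that share no like-for-like background. By sign alone, 8 of the 19 were opposite, beside 38.3% of all tested genes. The difference between the time points was not tested, since each condition has 1 library. *Krt20* had a log2 change of 0.31 at 48 h and −0.74 at 72 h. *Krt8* had 0.09 and −0.17, and *Krt19* had 0.07 and −0.24. *Krt18* went the other way, from −0.17 to 0.15. As large a change as that of *Krt8*, *Krt18* or *Krt19* was common, being seen at 48 h in 81.6%, 66.1% and 84.7% of all tested genes and at 72 h in 57.8%, 62.6% and 46.1%. At 72 h *Krt20* was at 0.597 times its untreated level, and the other 3 were between 0.847 and 1.11 times theirs.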

How the results depend on the processing

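The labels give no replicate numbers, so no replicates could be paired. Pairing the libraries by time, in a model of treatment with time as a block, was not run, since changes at 48 h and 72 h were described separately. Leaving out a library would remove its condition. The protein-coding transcript length and the settings for the other keratins and the genes of other lists were chosen after seeing the data. The count of the 7 keratins past 2-fold was 1 at 48 h and 0 in the other 3 comparisons under all 6 alternatives run. The median log2 change of the 7 at 72 h moved from 0.15 to 0.20 with library totals, which raised the median of all tested genes at 72 h to 0.05. Of 140 recomputed log2 changes of the 7, 129 lay inside the original counting interval, 11 lay outside it, 10 of these with library totals, and 0 whose interval left out 0 changed sign, and all 120 of the other keratins stayed within. With a mean scaled count of at least 50 as the filter, the other keratins past 2-fold were 3 instead of 6 at 48 h and 1 instead of 5 at 72 h, since fewer genes were tested. Without mitochondrial counts the share of the 7 was 0.44% and 0.464% at 48 h and 0.478% and 0.443% at 72 h, untreated and butyrate. The type II share depends on the length used: in the order untreated and butyrate at 48 h, then at 72 h, it was 42.7%, 44.1%, 43.5% and 43.7% with the longest transcript, and the same with the longest protein-coding transcript. It was 45.9%, 47.6%, 46.8% and 46.1% with *Krt7*, *Krt8*, *Krt18* and *Krt19* alone, and 50.7%, 52.4%, 51.3% and 52.4% with raw counts.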
